A study of Mus musculus with 2 samples.

Results

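Cholesterol synthesis, uptake and efflux genes were followed in RNA from imiquimod-treated mouse ear skin. The set was a list of 30 genes named by their place in the pathway, and all 30 were found among the 34745 genes of the deposited table. They comprise 19 enzymes from acetyl-CoA to cholesterol, 6 genes of SREBP2 control and sterol transport, and 5 genes of the liver X receptors (LXR), efflux and receptor turnover. RNA-seq was made from 1 library of ear skin of mice labelled KAT8-cKO, a conditional knockout of the histone acetyltransferase KAT8, and 1 library of ear skin of WT mice. Ears in both groups carried imiquimod-induced psoriasis-like inflammation, after 30 mg of 5% cream per ear daily for 3 days and collection on day 4. The promoter or cell type that drives the deletion, and the age, sex, strain and number of animals in a library, are not stated in the labels used here. No untreated skin was analysed here. With 1 library per genotype there was no replicate, no test was run, and every difference describes these libraries and cannot be set against the spread between animals.

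Cholesterol is built in the cytosol and endoplasmic reticulum from acetyl-CoA. The early enzymes make mevalonate and join its isoprene units into farnesyl diphosphate and squalene, and the later enzymes oxidise and fold squalene into lanosterol and trim it to cholesterol. When sterol in the endoplasmic reticulum is low, SCAP escorts the precursor of the transcription factor SREBP2 to the Golgi for cleavage, and SREBP2 then switches on the genes of synthesis. INSIG proteins hold SCAP back when sterol is plentiful, and LXR, bound by oxysterols, switches on genes of efflux. In skin, keratinocytes make cholesterol for the lipid barrier of the cornified layer, and sebaceous glands secrete sterols and other lipids as sebum.

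The libraries held 13727524 counts (KAT8-cKO) and 12179608 counts (WT). Kat8, the targeted gene, went against the label: it had 351 counts in the library labelled KAT8-cKO and 219 in the library labelled WT, a ratio of scaled levels of 1.27 (95% interval 1.07 to 1.51). The table has 1 value for the whole gene, so it checks the label only weakly, and the libraries are named by their labels throughout. Sex-linked transcripts also differed. Xist had 6 counts in the library labelled KAT8-cKO and 11891 in the library labelled WT. The Y-linked gene Ddx3y had 635 and 5 counts, and Eif2s3y had 838 and 0. These transcripts point to animals of different sex. Genotype label and sex therefore cannot be told apart in any ratio that follows. Keratin genes of the labelled tissue were abundant in each library, with Krt5 at 12613 and 8602 CPM and Krt14 at 12064 and 12587 CPM.

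Upstream promoter sequences were searched for motifs of factors known to act on these genes. Windows of 250 bases before an annotated start were found for 24 members (31 windows, RefSeq, GRCm38.p6), and Fdft1, Fdps, Stard4, Sqle, Npc1 and Abcg1 had none. CCAAT, the box bound by the factor NF-Y, was searched on both strands and stood in at least 1 window of 15 of 16 enzymes and of 4 of 8 other members, against 37.5% of all genes with a window. All 6 enzymes called higher in the comparison described after the sequences had it. Counted by window, it was in 15 of 19 windows of enzymes (78.9%) and in 33.8% of all 32851 windows of the same length. The sterol regulatory element form TCACNCCAC stood in 1 of 31 member windows, that of Hmgcs1, and in 1.05% of all windows. The LXR element form AGGTNA followed by 4 bases and NGGTCA (both strands) was in none of the 31 and in 0.0791% of all windows. None of the matches in member windows overlapped another. A match describes letters and does not show binding, and no match says only that these letters are not in this window.

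Windows of 4 genes are printed, with matches in capitals (CCAAT reads ATTGG on the opposite strand). Hmgcs1 (chr13:119690101-119690350, plus strand) is the member with the sterol element and with the highest level per length. Lss (chr10:76531355-76531604, plus strand) had 1 CCAAT match and one of the largest ratios between the libraries. Mvk (chr5:114444019-114444268, plus strand) had the most matches in 1 window, 5, and was not past 2-fold. Abca1 (chr4:53159896-53160145, minus strand) had none and was the member lower by 2-fold. A stretch of the Abca1 window, read on the opposite strand, differs by 1 letter from the LXR form, and the search took exact matches only.
Hmgcs1: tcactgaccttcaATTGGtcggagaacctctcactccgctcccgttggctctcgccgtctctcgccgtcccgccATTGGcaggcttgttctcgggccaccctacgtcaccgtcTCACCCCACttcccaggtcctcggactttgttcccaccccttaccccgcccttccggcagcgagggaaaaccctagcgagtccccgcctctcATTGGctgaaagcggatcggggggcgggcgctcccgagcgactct
Lss: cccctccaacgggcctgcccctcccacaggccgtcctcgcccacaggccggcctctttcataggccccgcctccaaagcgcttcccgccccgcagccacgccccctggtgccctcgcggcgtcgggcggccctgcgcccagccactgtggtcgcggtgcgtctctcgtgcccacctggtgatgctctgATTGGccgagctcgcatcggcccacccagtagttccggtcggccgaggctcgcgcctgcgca
Mvk: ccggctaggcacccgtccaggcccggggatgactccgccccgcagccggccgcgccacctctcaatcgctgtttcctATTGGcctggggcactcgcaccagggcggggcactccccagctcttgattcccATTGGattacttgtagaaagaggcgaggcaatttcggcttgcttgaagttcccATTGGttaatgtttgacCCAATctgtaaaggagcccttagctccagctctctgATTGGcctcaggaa
Abca1: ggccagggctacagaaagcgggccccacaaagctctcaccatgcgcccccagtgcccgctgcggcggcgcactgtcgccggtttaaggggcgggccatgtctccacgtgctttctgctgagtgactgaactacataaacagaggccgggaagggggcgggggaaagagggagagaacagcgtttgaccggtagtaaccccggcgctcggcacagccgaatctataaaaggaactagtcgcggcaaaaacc

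Across the set, 15 of 19 enzymes of synthesis had ratios above 0, 6 of them called higher in the library labelled KAT8-cKO, and the LXR and efflux genes had 1 called lower. Levels are CPM, counts scaled to a common library size by each library's total and its TMM factor (edgeR's trimmed mean method). The log2 ratio of a gene is that of the library labelled KAT8-cKO over the library labelled WT after adding 1 CPM to each, and a gene was called higher or lower at a log2 ratio of 1 in size, a 2-fold difference. All 30 members passed the filter of at least 1 CPM in either library. Of these, 6 were called higher and 1 lower, where 4.56% of all 15240 measured genes were called higher and 8.63% lower. In numbers these were 695 and 1315 genes, and 964 and 1056 when scaled by library totals alone. The median log2 ratio was 0.38 over the members and 0.01 over all measured genes, and 20 of 30 members had ratios above 0, against 50.6% of all measured genes. Summed over the 19 enzymes, the level was 3814 CPM in the library labelled KAT8-cKO and 2260 CPM in the library labelled WT, a ratio of 1.69. In whole tissue, fewer cells of a type and less RNA per cell cannot be told apart.

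**Figure D1:**
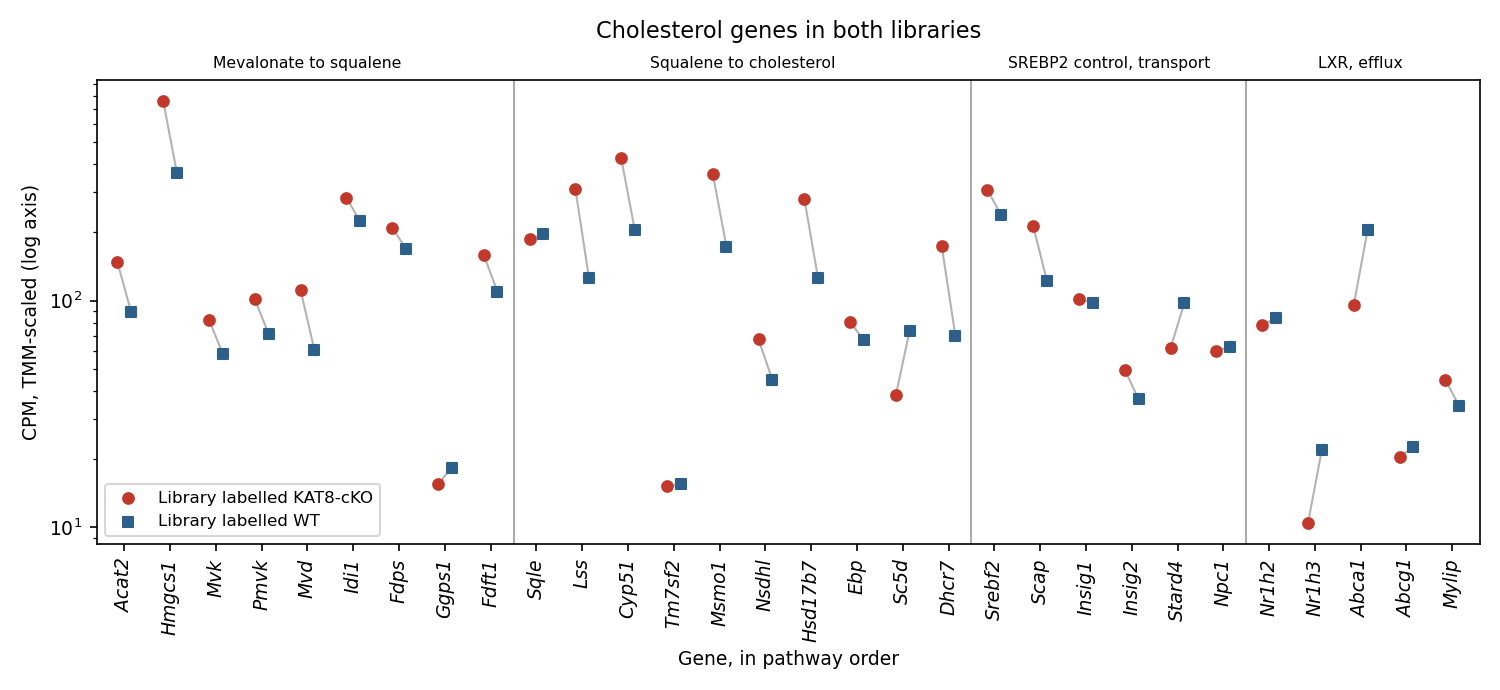
Level of each member in CPM (log axis) in the library labelled KAT8-cKO (red circles) and the library labelled WT (blue squares), 1 library each, in pathway order with the role groups above. Lines join the values of a gene. Of the 19 enzymes, 15 sit higher in the library labelled KAT8-cKO, while Ggps1, Sqle, Tm7sf2 and Sc5d sit lower there. Among the other members, Stard4, Npc1, Nr1h2, Nr1h3, Abca1 and Abcg1 sit lower there.

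Of 9 enzymes from acetyl-CoA to squalene, 8 had ratios above 0 and 1 was called higher, with a median log2 ratio of 0.50. Hmgcs1, which encodes the synthase that makes HMG-CoA (ENSMUSG00000093930, plus strand of chromosome 13 in GRCm38, from 119690379 to 119708260), reached 11013 counts in the library labelled KAT8-cKO and 4206 in the library labelled WT. That is 759 CPM against 365 CPM, a ratio of 2.08 (95% interval 2.01 to 2.15, counting error only). The cytosolic thiolase gene Acat2, which acts just before it, was at 148 CPM against 89.1 CPM. Its ratio was 1.66 (1.54 to 1.79), and it was 1.67 when the counts of Acat3, a copy with 97.7% identity over 1477 bases, were added. A stretch of 445 bases is also 98.7% identical to Tcp1, which had 4422 and 3549 counts, so the Acat2 value is less certain. The steps around Hmgcs1 were thus higher to unequal degrees, and only Hmgcs1 passed 2-fold among the steps up to squalene.

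The kinases and the decarboxylase that process mevalonate differed less. The mevalonate kinase gene Mvk was at 82.3 CPM in the library labelled KAT8-cKO and 58.4 CPM in the library labelled WT, a ratio of 1.41 (1.28 to 1.55). Pmvk, which encodes the next kinase, was at 102 and 71.4 CPM, a ratio of 1.42 (1.3 to 1.55). Mvd, the decarboxylase that makes isopentenyl diphosphate, came closest to the threshold, with 1616 and 700 counts and a ratio of 1.83 (1.68 to 2.01). Under scaling by library totals alone Mvd was called higher as well, at a log2 ratio of 1.02.

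None of the enzymes that assemble isoprene units was called. Idi1, the isomerase of isopentenyl diphosphate, was at 285 CPM in the library labelled KAT8-cKO and 223 CPM in the library labelled WT (ratio 1.27, 1.21 to 1.34). The farnesyl diphosphate synthase gene Fdps was at 210 and 170 CPM (1.24, 1.17 to 1.31). Fdft1, which encodes squalene synthase and commits farnesyl diphosphate to sterols, was at 159 and 109 CPM (1.46, 1.36 to 1.56). Ggps1, whose product diverts farnesyl diphosphate to geranylgeranyl groups for protein prenylation, was the exception, at 15.5 and 18.3 CPM, with an interval of 0.698 to 1.03 that holds 1. Several of these counts are less certain. Exons of Fdft1 overlap those of the abundant gene Ctsb on the opposite strand over 774 bases, and Fdps shares 26.7% of its exonic bases with Gm43738. Idi1, Fdps, Fdft1 and Ggps1 also have near-identical copies elsewhere in the annotation, as does a 462-base stretch of Hmgcs1.

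The steps from squalene to cholesterol held 5 of the 6 genes called higher. Their median log2 ratio was 0.82, or 0.58 without genes that share an exon with another gene, where that of the earlier enzymes was 0.61, and their summed level was 1944 CPM in the library labelled KAT8-cKO and 1095 CPM in the library labelled WT. Sqle, the epoxidase that opens these steps and a rate-limiting enzyme, was level, with 186 CPM against 196 CPM and a ratio of 0.95 (0.898 to 1.0). Lss, the cyclase that folds the epoxide into lanosterol (ENSMUSG00000033105, chromosome 10 from 76531588 to 76557138, plus strand), had 4513 counts against 1443. Its levels were 311 and 125 CPM, a ratio of 2.48 (2.34 to 2.64). Lss shares 3.53% of its exonic bases with 4930483K19Rik, which had 0 counts in each library. Consecutive enzymes therefore stood apart. Within a library, which needs no scaling, Lss had 1.67 counts for each Sqle count in the library labelled KAT8-cKO and 0.638 in the library labelled WT, a ratio of ratios of 2.61 (exact conditional 95% interval 2.41 to 2.84).

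The enzymes that strip methyl groups from lanosterol had ratios above 1, and of these only Nsdhl was not called. The reductase gene Tm7sf2, from the same part of the pathway, did not share this direction. Cyp51, the lanosterol demethylase (ENSMUSG00000001467, chromosome 5 from 4081145 to 4104746, minus strand), was at 425 CPM in the library labelled KAT8-cKO and 204 CPM in the library labelled WT, a ratio of 2.08 (1.99 to 2.19), and overlaps exons of Akap9 over 3.76% of its exonic bases. Akap9 was at 2.25 CPM per kb of exon in the library labelled KAT8-cKO and 2.91 in the library labelled WT. Msmo1, Nsdhl and Hsd17b7 encode a methylsterol oxidase, a dehydrogenase and a ketoreductase that work in turn on the same methyl groups. Msmo1 was at 363 and 173 CPM (2.10, 1.99 to 2.21). Hsd17b7 was at 282 and 125 CPM (2.25, 2.12 to 2.39). Nsdhl was at 67.5 and 44.9 CPM (1.5, 1.35 to 1.68) and is on the X chromosome, in libraries that differ in Xist. Tm7sf2 was level and at low counts, 221 and 179 (0.980, 0.801 to 1.20), and shares 12.1% of its exonic bases with Vps51.

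The last enzymes of the pathway went in opposite directions. Dhcr7, the reductase that yields cholesterol in the final step of one branch (ENSMUSG00000058454, chromosome 7 from 143823145 to 143848410, plus strand), had 2529 counts in the library labelled KAT8-cKO and 804 in the library labelled WT. Its levels of 174 and 69.8 CPM gave a ratio of 2.5 (2.31 to 2.71), the highest among the members. Sc5d, the lathosterol desaturase that acts just before Dhcr7, had 557 and 849 counts, or 38.4 and 73.7 CPM. It was 1.92-fold lower (1.72 to 2.14), short of the threshold, and the lowest ratio among the enzymes. There were 4.54 Dhcr7 counts for each Sc5d count in the library labelled KAT8-cKO and 0.947 in the library labelled WT, a ratio of ratios of 4.79 (exact conditional interval 4.19 to 5.49). The sterol isomerase gene Ebp, also on the X chromosome, was at 80.6 and 66.9 CPM (1.20, 1.10 to 1.32).

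**Figure D2:**
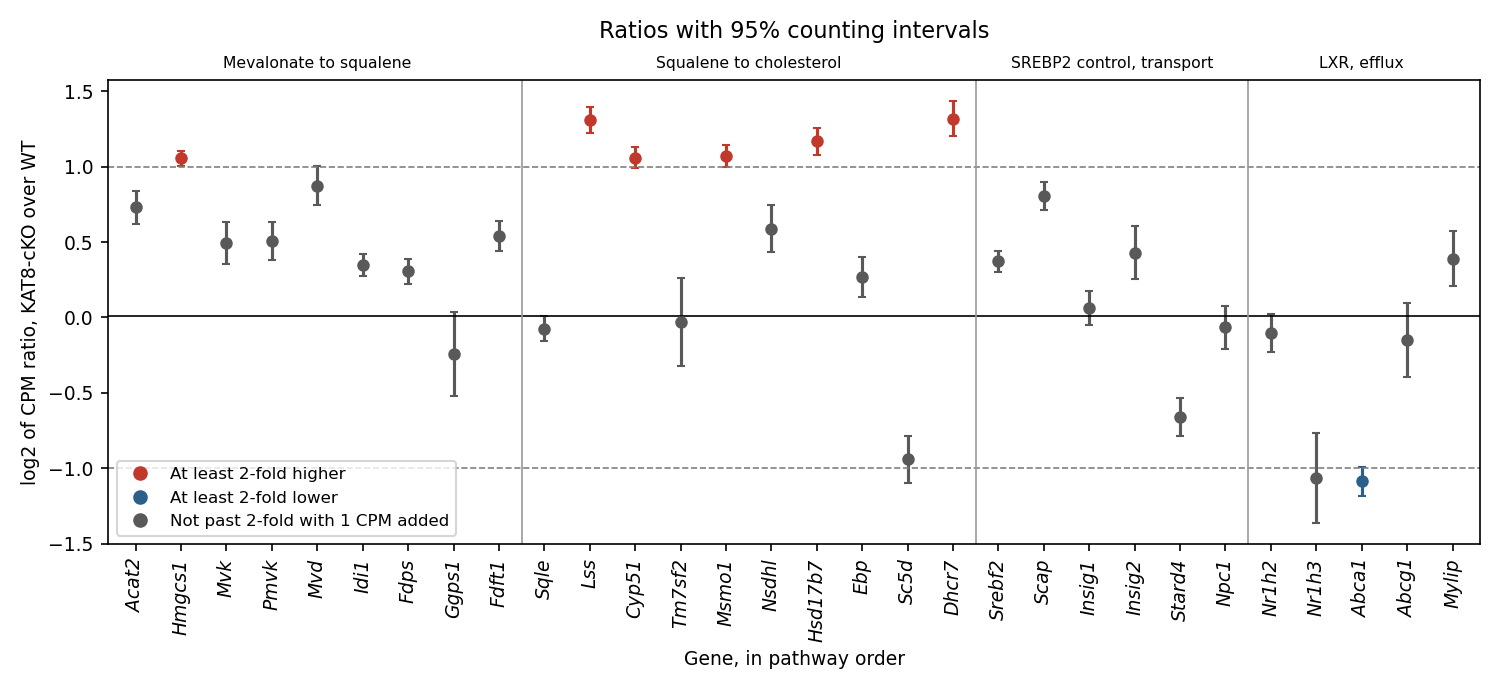
Log2 of the plain CPM ratio, KAT8-cKO over WT, for each member in pathway order, with exact 95% intervals that cover counting error only. Dashed lines mark 2-fold and the solid line the median of all measured genes (0.01). The points at and above the upper line are Hmgcs1, Lss, Cyp51, Msmo1, Hsd17b7 and Dhcr7; Sc5d, Stard4, Nr1h3 and Abca1 lie lowest.

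The 6 genes of SREBP2 control and sterol transport differed by less than 2-fold in every case (median log2 ratio 0.22). Srebf2, which encodes SREBP2, was at 308 CPM in the library labelled KAT8-cKO and 238 CPM in the library labelled WT (ratio 1.29, 1.23 to 1.36). Scap, its escort, was higher by more, at 213 and 122 CPM (1.75, 1.64 to 1.86). Of the retention factors, Insig2 was at 49.5 and 36.7 CPM (1.35, 1.19 to 1.52). Insig1, itself a target of SREBP2, was at 102 and 97.8 CPM, with an interval of 0.965 to 1.13 that holds 1. There were 2.09 Scap counts for each Insig1 count in the library labelled KAT8-cKO and 1.25 in the library labelled WT. The ratio of ratios was 1.67 (1.51 to 1.85). This pair leaves out Insig2, whose ratio of 1.35 was nearer to the 1.75 of Scap, so the balance of Scap to Insig2 differed by less.

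Stard4 and Npc1, the sterol carriers among the members, did not share the direction of most enzymes. Further carriers stand in the list of uptake, lysosomal release and storage described below, where 7 of 14 genes had log2 ratios above 0. Stard4, a soluble sterol carrier and another known SREBP2 target, was at 61.9 CPM in the library labelled KAT8-cKO and 97.8 CPM in the library labelled WT, 1.58-fold lower (1.45 to 1.73). Npc1, which moves cholesterol out of lysosomes after uptake, was level, with 869 and 722 counts and a ratio of 0.955 (0.865 to 1.06). Sqle, Insig1 and Stard4 therefore differed from Hmgcs1 among textbook SREBP2 targets. Hmgcs1 had 4.07 counts for each Sqle count in the library labelled KAT8-cKO and 1.86 in the library labelled WT, and 12.3 and 3.73 for each Stard4 count.

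The LXR and efflux genes were the only role group of the set with a median below 0 (log2 ratio -0.14 over 5 genes, or 0.01 under scaling by library totals). Abca1, the transporter that loads cholesterol onto apolipoproteins (ENSMUSG00000015243, chromosome 4 from 53030787 to 53159895, minus strand), had 1393 counts in the library labelled KAT8-cKO and 2351 in the library labelled WT. Levels were 96.0 and 204 CPM, 2.13-fold lower (1.99 to 2.27). This was the only member called lower, and under scaling by library totals its log2 ratio was -0.92, short of the threshold. Nr1h3, which encodes LXR alpha, had 152 and 252 counts, a plain fold of 2.09 lower (1.70 to 2.57), and its log2 ratio once 1 CPM was added was just under 1 in size. It was called lower with a pseudocount of 0.1 CPM.

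The other genes of this group were within 2-fold. Nr1h2, which encodes LXR beta, was at 77.9 CPM in the library labelled KAT8-cKO and 83.8 CPM in the library labelled WT (0.929, 0.852 to 1.01). Abcg1, a transporter that passes cholesterol to high-density lipoprotein, was at 20.4 and 22.7 CPM (0.900, 0.760 to 1.07). Mylip, an LXR target whose product marks lipoprotein receptors for degradation, was at 44.9 and 34.2 CPM (1.31, 1.16 to 1.49). The known LXR targets of the group thus included Abca1 below, Abcg1 near and Mylip above equality. Hmgcs1 had 7.91 counts for each Abca1 count in the library labelled KAT8-cKO and 1.79 in the library labelled WT, a ratio of ratios of 4.42 (exact conditional interval 4.10 to 4.77).

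Per length, levels of the members spanned a wide range in each library. Divided by the kilobases of annotated exon, Hmgcs1 was the most abundant, at 165 CPM per kb in the library labelled KAT8-cKO and 79.5 CPM per kb in the library labelled WT. Cyp51 (96.3 and 46.2) and Idi1 (81.2 and 63.7) followed, trading places as the next and the one after. Abcg1 was the least abundant in each, at 2.79 and 3.10 CPM per kb, with Tm7sf2 (3.46 and 3.53) and Ggps1 (3.28 and 3.88) just above it. Hsd17b7 stood at rank 8 of 30 in the library labelled KAT8-cKO and 15 in the library labelled WT, Msmo1 at 6 and 12, and Abca1 at 24 and 17. Exon length is that of all annotated transcripts together, so these levels understate genes with long exons that few transcripts use. Across the 30 members, mean level per kb and log2 ratio correlated with Pearson's r of 0.56 and Spearman's rho of 0.55, a description over genes that share both libraries. The level in each library enters both quantities, so they are not independent, and no dependence of the ratio on abundance is drawn from this.

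**Figure D3:**
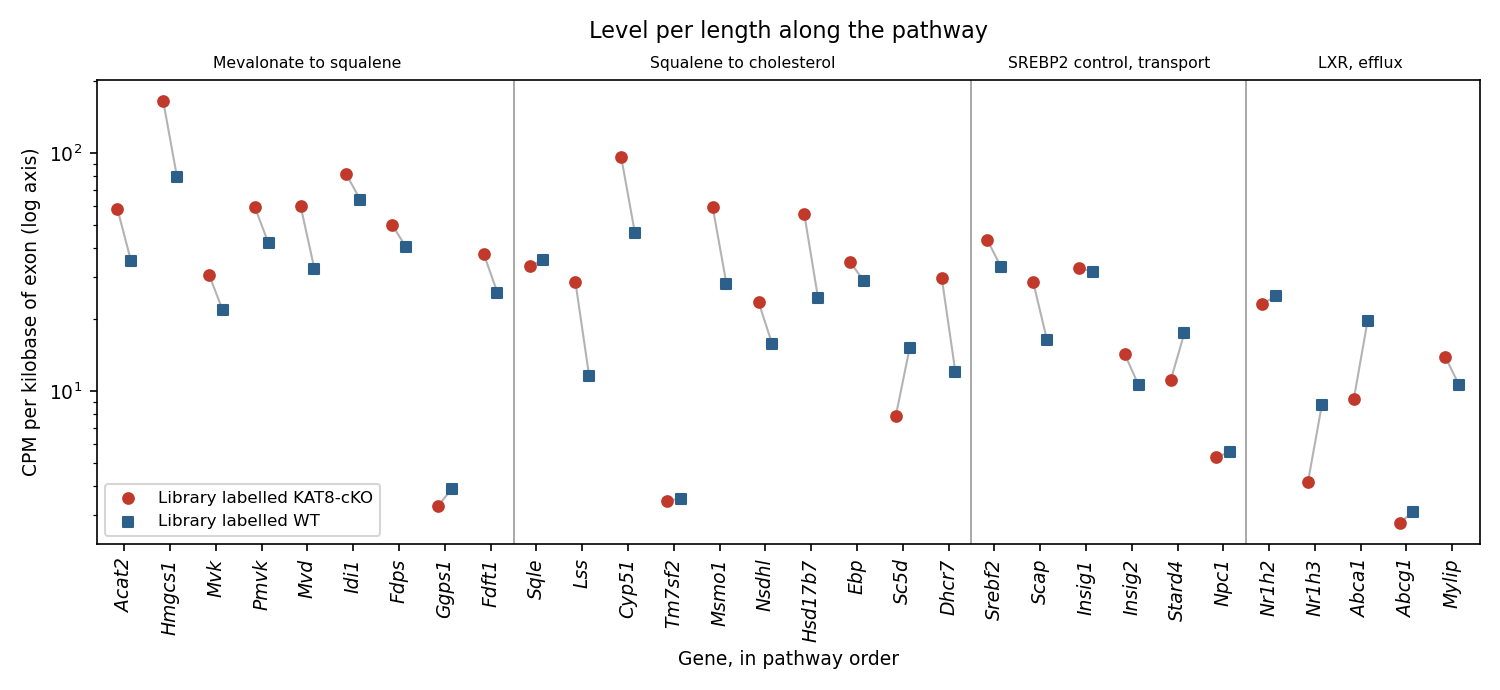
Level of each member per length, in CPM per kilobase of annotated exon (log axis), in the library labelled KAT8-cKO (red circles) and the library labelled WT (blue squares), 1 library each. Hmgcs1 stands highest and Abcg1 lowest in each, and the lines that join the values of the neighbours Sc5d and Dhcr7 slope in opposite directions.

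Of 59 other genes around the pathway, all were measured, 6 were called higher and none lower, with a median log2 ratio of 0.32. The shares over all measured genes, for this count and those of the lists below, were 4.56% called higher and 8.63% lower. Among 14 genes of uptake, lysosomal release and storage, 1 was called. Soat1, which esterifies cholesterol for storage, was at 363 CPM in the library labelled KAT8-cKO and 64.6 CPM in the library labelled WT, a ratio of 5.62 (5.20 to 6.07). It is also a sebaceous marker in the lists used here. The list's most abundant genes by the mean of the libraries, the endocytic receptor gene Lrp1 and the lysosomal sterol carrier gene Npc2, were at 569 and 324 CPM and at 202 and 256 CPM.

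LXR partners and further LXR targets had 2 of 8 genes called higher, unlike Abca1. Apoe, which encodes a lipoprotein that accepts cholesterol, was at 1242 CPM in the library labelled KAT8-cKO and 429 CPM in the library labelled WT (2.90, 2.81 to 2.99). Lpcat3, a phospholipid acyltransferase, was at 174 and 67.9 CPM (2.56, 2.36 to 2.77). Of 5 genes of the oxysterol and bile acid branch, 1 was called. That gene, the oxysterol hydroxylase Cyp7b1, was at 72.9 and 30.0 CPM (2.43, 2.15 to 2.75), and Hsd3b7 was at 25.4 and 13.8 CPM. Hsd3b7 shares 99.2% of its exonic bases with another gene, so its value is uncertain, and Lpcat3 shares 10.2%.

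None of 10 genes of SREBP processing and sterol-regulated degradation was called. Srebf1, the gene of SREBP1, was at 212 CPM in the library labelled KAT8-cKO and 106 CPM in the library labelled WT, with a plain ratio of 2.0 (1.88 to 2.14). In the non-sterol isoprenoid branch, which makes dolichol, ubiquinone and prenyl groups, 0 of 10 genes were called, and the most abundant, Nus1 and Fnta, were at 140 and 131 CPM and at 102 and 91.3 CPM. Fatty acid synthesis genes had 2 of 12 called higher, at a median log2 ratio of 0.14. They were the desaturase gene Scd1, at 5012 and 1456 CPM, and the elongase gene Elovl6, at 1089 and 62.6 CPM. Elovl6 shares 0.529% of its exonic bases with another gene.

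Cell type markers moved between the same libraries, some of them by more than the cholesterol genes. The shares over all measured genes were 4.56% called higher and 8.63% lower. Of 15 sebaceous gland markers, 11 were called higher and 1 lower, with a summed level of 9101 CPM in the library labelled KAT8-cKO and 2101 CPM in the library labelled WT and none at 0 counts. The list includes Scd1 and Soat1, which also stand in the pathway lists. Basal keratinocyte markers had 2 of 8 called higher and sums of 27567 and 22862 CPM. Differentiating keratinocyte markers had 8 of 9 called lower, with sums of 2010 and 6244 CPM. Adipocyte markers had 9 of 10 called lower, with sums of 366 and 3394 CPM, and skeletal muscle markers 10 of 10, with sums of 2782 and 14177 CPM. The part of these differences in the ratios of the cholesterol genes was not tested.

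Abca1 and Nr1h3 are known to be expressed by macrophages, and some myeloid markers were lower as well. Monocyte and macrophage markers had 6 of 10 called lower and sums of 1023 CPM in the library labelled KAT8-cKO and 2678 CPM in the library labelled WT, with none at 0 counts. The macrophage genes Adgre1 (61.9 and 65.5 CPM), Csf1r (118 and 108 CPM) and Mrc1 (108 and 121 CPM) were near equality. Cd14 (164 and 882 CPM) and Lyz2 (376 and 940 CPM) made up most of the sum in the library labelled WT. Neutrophil markers had 8 of 10 called lower, with sums of 5083 and 14040 CPM. S100a8 (2230 and 5844 CPM) and S100a9 (2372 and 4739 CPM) made up most of these sums in each library. Over all measured genes 8.63% were called lower and 4.56% higher. Dendritic cell markers had 6 of 8 called higher and Schwann cell markers 4 of 8, with sums of 481 and 179 CPM and of 535 and 249 CPM. By summed level, adipocyte markers were 9.26-fold lower and monocyte and macrophage markers 2.62-fold lower. The part of any of the marker lists in the lower levels of Abca1 and Nr1h3 was not tested.

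**Figure D4:**
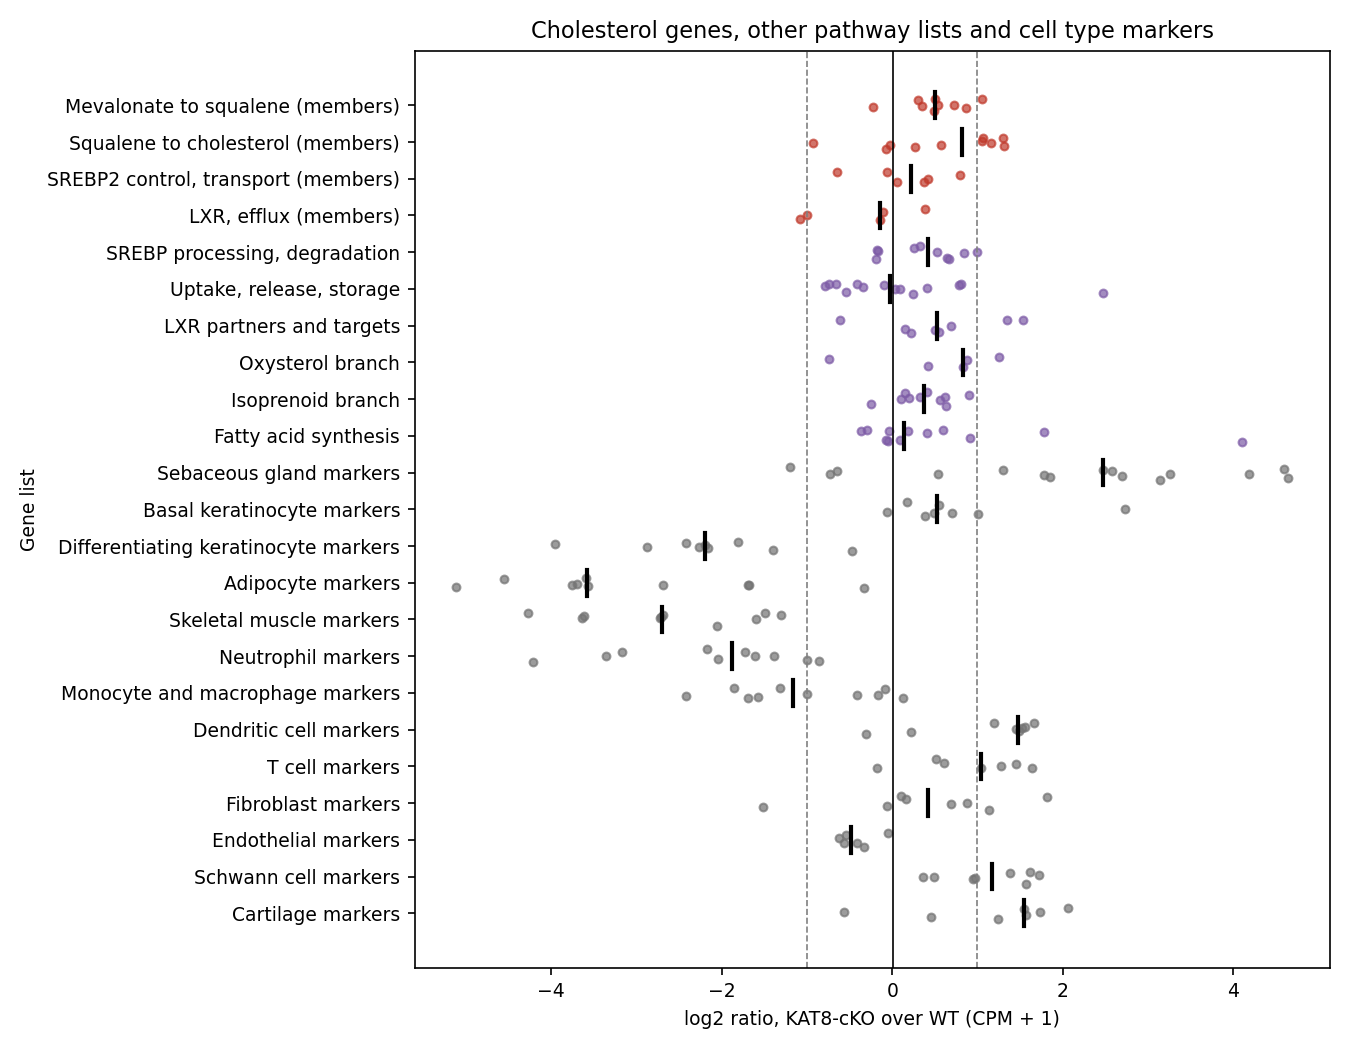
Log2 ratios, KAT8-cKO over WT, of the members by role (red), of the other pathway lists (purple) and of marker lists of cell types (grey); each point is 1 gene, black bars are list medians, dashed lines mark 2-fold and the solid line the median of all measured genes. Member medians lie between -0.14 and 0.82, inside the range of the marker lists, whose medians reach -3.58 for adipocytes and 2.47 for the sebaceous gland.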

How the data were processed

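RNA was measured in 1 library of ear skin per genotype label. Per the file headers, the authors deposited gene-level read counts under Ensembl identifiers, and the values are whole numbers with no scaling. Per the submitters' processing notes, HISAT2, StringTie 1.3.0, edgeR and the mm10 build were used, in roles the notes do not give. These notes give neither the counting tool nor the annotation release or strand setting.

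Identifiers were paired with symbols, coordinates and exon lengths from GENCODE M21 (GRCm38), which found 34344 of 34745. The remaining 401 held 0.0597% (KAT8-cKO) and 0.0783% (WT) of counts and stayed in the totals. CPM used edgeR 4.0.16 TMM factors (1.06 and 0.946). A pseudocount of 1 CPM, a filter of 1 CPM in either library and a 2-fold threshold were used, and DESeq2 1.42.0 gave alternative size factors. Ratio intervals are exact (Clopper-Pearson, 95%). They cover counting error only, with no spread between animals. They may be too narrow even for that, because reads that carry no molecular identifier need not be independent molecules. At these depths 1 count was 0.0689 CPM (KAT8-cKO) and 0.0868 CPM (WT). Exons shared with other genes were counted among genes of the table, where 31.0% of measured genes had one. Near-identical copies were sought with BLAST 2.17.0 (at least 90% identity over 300 bases). The calculation was tested on simulated data. Members, lists, motifs and alternatives were chosen with earlier results of these data known. All 30 members were named, and in each other list the genes called or, with fewer than 2, the 2 most abundant; 1 gene that the rule names is not reported here.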

Additional observations from a re-analysis of the deposited data

How the results depend on the processing

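The 6 members called higher were the same genes without a filter, with a filter of 5 CPM, with pseudocounts of 0.1 or 5 CPM, with DESeq2 size factors, and with library totals that left out mitochondrial genes or the 50 most abundant genes. Scaling by library totals alone moved the median of all measured genes to 0.16, from 0.01 under TMM. It called 7 members higher (Mvd added), 0 lower and 11 other pathway genes higher, with medians of 0.53 over all members, 0.66 and 0.98 over the early and late enzymes and 0.38 over SREBP2 control. Under it Sqle, Tm7sf2, Npc1, Nr1h2 and Abcg1, all near equality, changed sign. A pseudocount of 0.1 CPM and the totals without mitochondrial or the 50 most abundant genes each called 2 members lower, Abca1 and Nr1h3. At 1.5-fold 9 members were higher and 4 lower, and 20 other pathway genes higher and 5 lower, beside 1966 and 2626 of all measured genes. All measured genes called numbered 347 higher and 777 lower at a pseudocount of 5 CPM, and 233 and 488 at 3-fold. At 3-fold 0 members were called higher or lower, and 3 other pathway genes higher. Without genes that share an exon 4 members were called higher (Lss and Cyp51 left out), beside 524 higher and 992 lower of 10514 measured genes. The late enzymes then had a median of 0.58 and the early ones 0.61, the opposite order to 0.82 and 0.50 over all of them. Leaving out also members with near-identical copies, an alternative chosen after the data were seen, kept 18 members, of which 3 were higher (Msmo1, Hsd17b7 and Dhcr7), with the same late median of 0.58; fewer genes entered these counts. Of 180 member values under the scalings and pseudocounts, 156 stayed within the counting interval or a band of equal width centred on the main value. Most of the other 24 came from scaling by library totals alone, which moved most members outside. No called value changed sign. No paired analysis was possible because each genotype has 1 library. Variation between animals could not be measured at any depth.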
